A study of Homo sapiens
Mus musculus with 6 samples.

Results

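The subject is a set of 10 human genes of the Eph and ephrin family in HEK cells: the receptors EPHA2, EPHA3, EPHA4, EPHA7, EPHB2, EPHB3 and EPHB4, and the ligands EFNA1, EFNB1 and EFNB2. They were taken by symbol from the human gene table, where they are 10 of 23855 entries, and read in all 6 wells of the experiment. The family was chosen by the EPHA3 reads, which were at 0 in one HEK line, so the EPHA3 values between lines are described here without a test. The other 9 members were named with results of these wells already known. Their differences come from a fit across the whole table, and their counts are descriptive.

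Eph receptors are receptor tyrosine kinases whose ligands, the ephrins, sit on the surface of neighbouring cells, so that signalling needs cell contact. Ephrin-A proteins are held by a lipid anchor and ephrin-B proteins cross the membrane. A-type receptors mostly bind ephrin-A and B-type receptors mostly bind ephrin-B, with EPHA4 binding both classes. Signals pass into the receptor-bearing cell and also back into the ephrin-bearing cell, and the family is known for guiding axons, sorting cells at tissue boundaries and separating arteries from veins.

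Each well held a co-culture of human HEK-293-Flp-In cells, an embryonic kidney line with a fixed integration site, and mouse C2C12 myoblasts. The HEK cells expressed Jag1 with the Ndr variant (HEK-Jag1Ndr, 2 wells), wild-type Jag1 (HEK-Jag1WT, 2 wells) or neither (HEK-control, 2 wells). Jag1 is a ligand of the Notch receptors. Of the 2 wells of each HEK line, 1 held C2C12-Notch1 cells, which express Notch1, and 1 held C2C12-control cells. All C2C12 cells had received 1.6 µg per well of the plasmid pcDNA5 8 hours after seeding, the HEK cells were added 18 hours after that, and the wells were lysed after 6 hours together. Both Jag1 lines were kept under hygromycin and C2C12-Notch1 under puromycin, for which the labels name no counterpart in the control lines. The sources used here do not say whether a HEK line is 1 clone or a pool. Each construct is held by 1 line, so an effect of the construct and a difference between lines cannot be told apart. No separate cultures are named behind the 2 wells of a line, so the p-values rest on well-to-well spread that may be technical only. With 1 well per combination of lines, that spread also holds any interaction of HEK line and C2C12 line, which cannot be tested. An SD over the 2 wells of a HEK line likewise includes the difference between C2C12 partners.

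Total human gene counts ran from 4081452 to 10292878 reads per well and total mouse counts from 2263529 to 7965231. All 10 listed HEK-293 markers were found in the human table at a median of 57.0 RPKM (reads per kilobase of gene and per 1000000 reads), and 9 of 10 C2C12 markers lay under 1 RPKM there, against a median of 57.5 RPKM in the mouse table. The HEK-293 list was less particular, since its mouse symbols had a median of 13.5 RPKM in the mouse table, with 4 of 10 under 1 RPKM. Jag1 reads, counted in the mouse table, came to 9448 and 8878 per 1000000 human reads in the HEK-Jag1Ndr wells and to 8701 and 8221 in the HEK-Jag1WT wells, against 27.2 and 27.0 in the HEK-control wells. In the text below a pair of values for a HEK line is that of its well with C2C12-Notch1 and that of its well with C2C12-control.

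EPHA3, an A-type receptor known for repulsive guidance and for its role in cell adhesion during development, had no read in either HEK-Jag1WT well. It had 51 and 72 reads in the HEK-Jag1Ndr wells, 0 and 0 in the HEK-Jag1WT wells, and 104 and 41 in the HEK-control wells. Per length these were levels of 1.34 and 1.73 RPKM in HEK-Jag1Ndr, 0 RPKM in both HEK-Jag1WT wells, and 1.74 and 1.71 RPKM in HEK-control. The lowest well of HEK-Jag1Ndr and of HEK-control lay well above both HEK-Jag1WT wells, and EPHA3 was at 0 in HEK-Jag1WT beside both C2C12 lines. Summed over the 2 wells of a line, EPHA3 took 8.90 reads per 1000000 in HEK-Jag1Ndr and 10.1 reads per 1000000 in HEK-control, against 0 of 10525232 reads in HEK-Jag1WT. That count of 0 allows a level of up to 0.285 reads per 1000000 (3 reads over both wells, counting error only). The HEK-Jag1Ndr rate was 31.2-fold and the HEK-control rate 35.4-fold that bound. These ratios leave out the counting error of the HEK-Jag1Ndr and HEK-control reads, and they describe the values that prompted the choice. In the lines where it was read, mean EPHA3 was 1.53 ± 0.274 RPKM in HEK-Jag1Ndr and 1.72 ± 0.0211 RPKM in HEK-control (SD, n = 2 each). The HEK-Jag1Ndr well with C2C12-control lay within the range of the HEK-control wells. These are bulk values, so fewer cells of a type and less RNA per cell cannot be told apart.

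**Figure D1:**
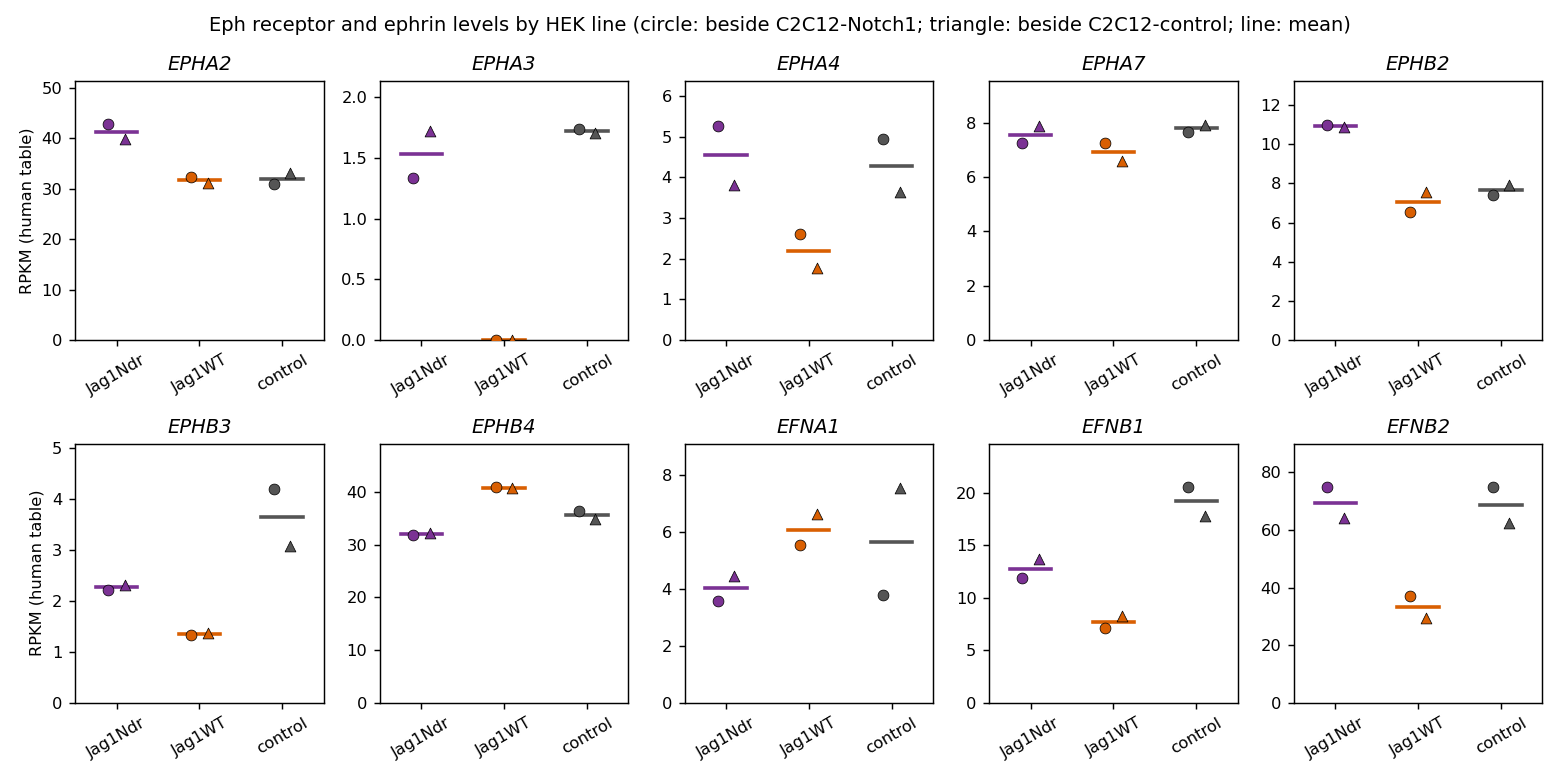
Levels of the 10 Eph receptors and ephrins in RPKM (vertical axes, from 0) by HEK line, with 1 point per well (circle beside C2C12-Notch1, triangle beside C2C12-control) and a line at the mean. EPHA3 lies at 0 RPKM in both HEK-Jag1WT wells, EFNB2 at 37.2 and 29.4 RPKM there, below every well of the other lines, and EPHB4 at 40.9 and 40.7 RPKM, above them.

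Few other entries were silent in this way. With a minimum of 10 reads in each of the other 4 wells, 4 entries had no read in either HEK-Jag1WT well, namely EPHA3, the serotonin receptor gene HTR1B, the MET pathway gene MACC1 and the zinc finger gene ZNF682. By the same rule 1 entry, the zinc finger gene ZNF91, was silent in HEK-Jag1Ndr and 0 in HEK-control. Across all tested genes, the 5 whose pattern over the 6 wells lay nearest to that of EPHA3 were NALCN, PYCR1, FAM19A5, NOV and ZNF682, at Euclidean distances between centred log2 CPM (counts per 1000000 reads) of 0.30, 0.80, 0.98, 1.06 and 1.19. NALCN, a sodium leak channel, had 80 and 92 reads in HEK-Jag1Ndr, 1 and 1 in HEK-Jag1WT, and 149 and 65 in HEK-control. NOV, a secreted matrix protein of the CCN family, had 1820 and 1650 reads in HEK-Jag1Ndr, 60 and 67 in HEK-Jag1WT, and 2240 and 833 in HEK-control. NALCN thus lay close to silence in HEK-Jag1WT as EPHA3 did, while NOV was lower there and still plainly read.

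Among the other A-type receptors, EPHA4 was lowest in HEK-Jag1WT, EPHA2 was highest in HEK-Jag1Ndr, and EPHA7 passed no test between lines. EPHA4, which binds both ephrin classes and is known for axon repulsion, had levels of 5.27 and 3.82 RPKM in HEK-Jag1Ndr, 2.60 and 1.76 RPKM in HEK-Jag1WT, and 4.95 and 3.64 RPKM in HEK-control. Both HEK-Jag1WT wells lay below all wells of the other lines, and the HEK-Jag1Ndr and HEK-control wells overlapped. The difference on the log2 scale was -0.98 for HEK-Jag1WT against HEK-control (SE 0.145, edgeR adjusted p = 3.97e-08) and 1.07 for HEK-Jag1Ndr against HEK-Jag1WT (SE 0.143, edgeR adjusted p = 2.29e-09). HEK-Jag1Ndr against HEK-control gave 0.09 (SE 0.119, edgeR adjusted p = 0.569). The comparisons with HEK-control share its 2 wells, so they are not independent of each other.

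EPHA2, a receptor of epithelial cells that binds EFNA1, had levels of 42.8 and 39.8 RPKM in HEK-Jag1Ndr, 32.4 and 31.2 RPKM in HEK-Jag1WT, and 30.9 and 33.2 RPKM in HEK-control. The HEK-Jag1Ndr wells stood above all others, and the ranges of HEK-Jag1WT and HEK-control overlapped. The log2 difference was 0.38 for HEK-Jag1Ndr against HEK-control (SE 0.0664, edgeR adjusted p = 2.09e-06), 0.40 for HEK-Jag1Ndr against HEK-Jag1WT (SE 0.068, edgeR adjusted p = 7.88e-07) and -0.02 for HEK-Jag1WT against HEK-control (SE 0.0709, edgeR adjusted p = 0.84). EPHA7, a receptor of the developing nervous system, had levels of 7.26 and 7.86 RPKM in HEK-Jag1Ndr, 7.26 and 6.57 RPKM in HEK-Jag1WT, and 7.67 and 7.90 RPKM in HEK-control. HEK-Jag1Ndr overlapped both other lines, and its log2 difference from HEK-control was -0.03 (SE 0.095, edgeR adjusted p = 0.798). HEK-Jag1WT lay below HEK-control in both wells, by -0.19 on the log2 scale (SE 0.101, edgeR adjusted p = 0.112).

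The B-type receptors each followed a pattern of their own. EPHB2, which binds ephrin-B proteins and positions cells of the intestinal crypt, had levels of 11.0 and 10.9 RPKM in HEK-Jag1Ndr, 6.54 and 7.56 RPKM in HEK-Jag1WT, and 7.38 and 7.93 RPKM in HEK-control. It was higher in both HEK-Jag1Ndr wells than in the other 4, whose ranges overlapped. Its log2 difference was 0.52 for HEK-Jag1Ndr against HEK-control (SE 0.0998, edgeR adjusted p = 1.57e-05), 0.66 for HEK-Jag1Ndr against HEK-Jag1WT (SE 0.106, edgeR adjusted p = 2.25e-07) and -0.14 for HEK-Jag1WT against HEK-control (SE 0.113, edgeR adjusted p = 0.294).

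EPHB3, which acts beside EPHB2 in the crypt and in commissural axons, had levels of 2.21 and 2.31 RPKM in HEK-Jag1Ndr, 1.32 and 1.36 RPKM in HEK-Jag1WT, and 4.19 and 3.08 RPKM in HEK-control. The 3 lines did not overlap, with HEK-Jag1WT lowest and HEK-control highest. The log2 difference was -1.49 for HEK-Jag1WT against HEK-control (SE 0.208, edgeR adjusted p = 9.78e-09) and -0.71 for HEK-Jag1Ndr against HEK-control (SE 0.174, edgeR adjusted p = 0.000555). HEK-Jag1Ndr against HEK-Jag1WT gave 0.78 (SE 0.229, edgeR adjusted p = 0.00273). The calls with HEK-Jag1Ndr rest on single wells: without the HEK-control well beside C2C12-Notch1 the difference from HEK-control was -0.41 (edgeR adjusted p = 0.264), and without the HEK-Jag1Ndr well beside C2C12-Notch1 its adjusted p was 0.123. Against HEK-Jag1WT the edgeR adjusted p was 0.0749 without the HEK-Jag1Ndr well beside C2C12-control and 0.0948 without the HEK-Jag1WT well beside C2C12-Notch1. DESeq2 passed neither call (adjusted p = 0.157 against HEK-control and 0.0845 against HEK-Jag1WT), and limma on log2(RPKM + 0.1) gave 0.055 against HEK-control.

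EPHB4, the receptor that marks veins and binds EFNB2, had levels of 31.9 and 32.1 RPKM in HEK-Jag1Ndr, 40.9 and 40.7 RPKM in HEK-Jag1WT, and 36.4 and 34.9 RPKM in HEK-control. The 3 lines were apart here too, with HEK-Jag1WT highest and HEK-Jag1Ndr lowest, over a narrow range. HEK-Jag1Ndr against HEK-Jag1WT gave -0.32 on the log2 scale (SE 0.0642, edgeR adjusted p = 1.54e-05). Against HEK-control the differences were -0.16 for HEK-Jag1Ndr (SE 0.0639, edgeR adjusted p = 0.0398) and 0.17 for HEK-Jag1WT (SE 0.0641, edgeR adjusted p = 0.0218). The HEK-Jag1Ndr call was lost in 9 of 12 alternative settings, among them DESeq2 (adjusted p = 0.368) and edgeR without either HEK-Jag1Ndr well (0.232 and 0.132), without either HEK-Jag1WT well (0.114 and 0.111) and without the HEK-control well beside C2C12-Notch1 (0.230). The HEK-Jag1WT call was lost with DESeq2 (adjusted p = 0.125), and with edgeR without the HEK-Jag1WT well beside C2C12-Notch1 (adjusted p = 0.0983), without that beside C2C12-control (0.106) and without the C2C12 term (0.0782).

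**Figure D2:**
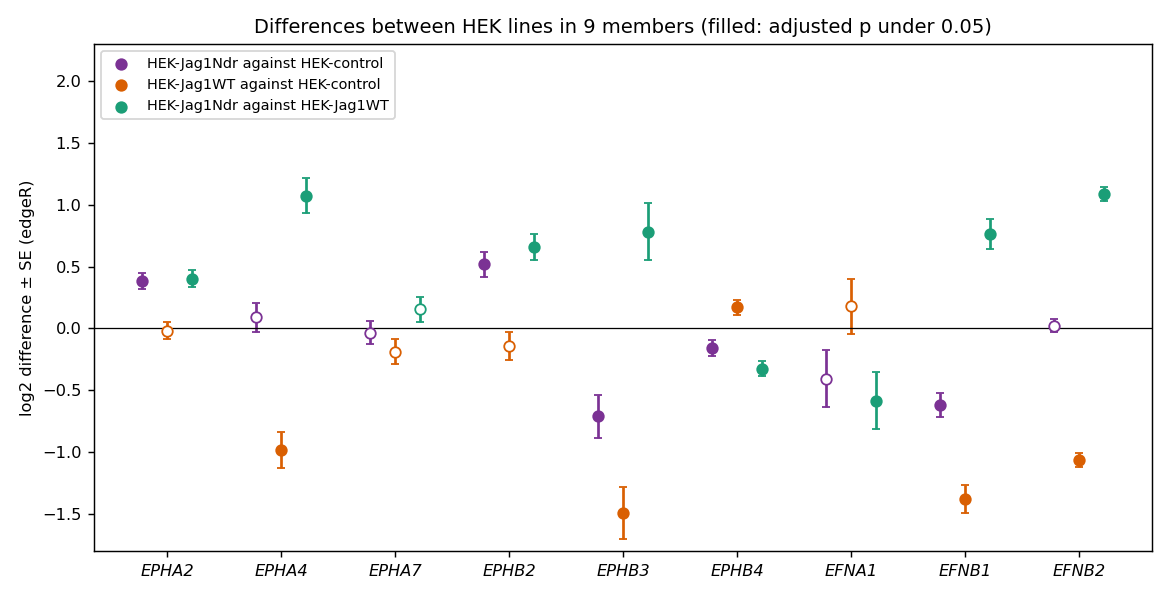
Log2 differences between HEK lines (vertical axis, edgeR estimate ± SE) for the 9 members other than EPHA3, in 3 comparisons. Filled points have an adjusted p under 0.05, and EFNB2 stands at -1.07 for HEK-Jag1WT against HEK-control and at 1.09 for HEK-Jag1Ndr against HEK-Jag1WT, with 0.02 between HEK-Jag1Ndr and HEK-control.

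The ephrin-B ligands showed the widest gaps between lines among the ligand members. EFNB2, the ephrin that marks arteries and signals with EPHB4 and EPHA4, had levels of 74.9 and 64.1 RPKM in HEK-Jag1Ndr, 37.2 and 29.4 RPKM in HEK-Jag1WT, and 74.8 and 62.4 RPKM in HEK-control. Both HEK-Jag1WT wells lay below every other well, and the HEK-Jag1Ndr and HEK-control wells were almost superimposed. The log2 difference was -1.07 for HEK-Jag1WT against HEK-control (SE 0.0594, edgeR adjusted p = 4.37e-24) and 1.09 for HEK-Jag1Ndr against HEK-Jag1WT (SE 0.0588, edgeR adjusted p = 5.85e-25). Between HEK-Jag1Ndr and HEK-control it was 0.02 (SE 0.0534, edgeR adjusted p = 0.773).

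EFNB1, an X-linked ligand of the EPHB receptors that is known from craniofrontonasal syndrome, had levels of 11.9 and 13.7 RPKM in HEK-Jag1Ndr, 7.09 and 8.28 RPKM in HEK-Jag1WT, and 20.5 and 17.8 RPKM in HEK-control. The 3 lines did not overlap, and both Jag1 lines lay below HEK-control. The log2 difference was -1.38 for HEK-Jag1WT against HEK-control (SE 0.113, edgeR adjusted p = 1.41e-16), -0.62 for HEK-Jag1Ndr against HEK-control (SE 0.0971, edgeR adjusted p = 2.64e-07) and 0.76 for HEK-Jag1Ndr against HEK-Jag1WT (SE 0.119, edgeR adjusted p = 1.42e-07). The HEK-Jag1Ndr difference from HEK-control was -0.39 without the HEK-control well beside C2C12-Notch1 (edgeR adjusted p = 0.0142). EFNA1, the ligand of EPHA2, had 37 and 49 reads in HEK-Jag1Ndr, 46 and 53 in HEK-Jag1WT, and 60 and 48 in HEK-control, at levels of 3.58 and 4.44 RPKM, 5.53 and 6.62 RPKM, and 3.77 and 7.53 RPKM in those lines. The HEK-control wells spanned nearly the whole range of EFNA1, and their well beside C2C12-Notch1 was the low one. HEK-Jag1Ndr against HEK-Jag1WT gave -0.59 on the log2 scale (SE 0.23, edgeR adjusted p = 0.0256). That call was lost with DESeq2 (adjusted p = 0.253), and with edgeR without the HEK-Jag1Ndr well beside C2C12-control (0.324), without the HEK-Jag1WT well beside C2C12-Notch1 (0.243) and without the C2C12 term (0.107). Against HEK-control the EFNA1 differences were -0.41 for HEK-Jag1Ndr (SE 0.229, edgeR adjusted p = 0.145; 0.0287 without the HEK-control well beside C2C12-Notch1) and 0.18 for HEK-Jag1WT (SE 0.222, edgeR adjusted p = 0.515).

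Of the 9 members other than EPHA3, 2 were higher and 3 lower in HEK-Jag1Ndr than in HEK-control, where 46.1% of 13596 tested genes passed in either direction (22.6% higher, 23.5% lower). In HEK-Jag1WT against HEK-control 1 was higher and 4 lower, where 54.3% of all tested genes passed (24.9% higher, 29.4% lower). In HEK-Jag1Ndr against HEK-Jag1WT 6 were higher and 2 lower, where 57.7% of all tested genes passed (29.2% higher, 28.5% lower). The choice of the family used the comparisons with HEK-Jag1WT, so nothing is read from their counts. Differences between the HEK lines were thus common across the whole table, and the member share in HEK-Jag1Ndr against HEK-control, 5 of 9, was close to that background. DESeq2 called 3 of the 9 in that comparison, and over the whole table it called 2995 genes where edgeR called 6266. The median log2 difference over the 9 members was -0.03 in HEK-Jag1Ndr against HEK-control, against -0.01 over all tested genes. It was -0.19 in HEK-Jag1WT against HEK-control and 0.66 in HEK-Jag1Ndr against HEK-Jag1WT, against -0.03 and -0.01 over all tested genes. Nothing is read from these medians with HEK-Jag1WT either, for the same reason as the counts.

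The order of levels differed between the lines. In HEK-Jag1Ndr it was EFNB2, EPHA2, EPHB4, EFNB1, EPHB2, EPHA7, EPHA4, EFNA1, EPHB3 and EPHA3 from high to low, and the neighbouring pair EPHA4 and EFNA1 overlapped between wells. In HEK-Jag1WT EPHB4 came first at 40.8 ± 0.155 RPKM (SD, n = 2), ahead of EFNB2 at 33.3 ± 5.50 RPKM and EPHA2 at 31.8 ± 0.847 RPKM, and the wells of EFNB2 and EPHA2 overlapped. EFNB1, EPHB2, EPHA7 and EFNA1 followed there, each overlapping its neighbour, and then EPHA4, EPHB3 and EPHA3, which were apart. In HEK-control EFNB2 led at 68.6 ± 8.75 RPKM, before EPHB4 at 35.6 ± 1.03 RPKM, EPHA2 at 32.0 ± 1.61 RPKM and EFNB1 at 19.2 ± 1.91 RPKM (SD, n = 2 each). Each of the neighbouring pairs from EPHA7 through EPHB2, EFNA1 and EPHA4 to EPHB3 overlapped in HEK-control, and EPHA3 was the lowest.

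The other 12 family genes gave a wider view, and 10 of them had enough reads to be tested. EPHA6, a receptor of the nervous system, had at most 2 reads in any well. EPHA1, the founding receptor of the family, had 2 to 16 reads per well and shares its locus with an antisense gene, EPHA1-AS1, from which unstranded reads cannot be told apart. EFNA5, a ligand known for retinal map formation, was the highest of the 12 at 9.01 ± 1.04 RPKM in HEK-Jag1Ndr, 9.15 ± 1.03 RPKM in HEK-Jag1WT and 10.0 ± 0.380 RPKM in HEK-control (SD, n = 2 each), and passed no test between lines. EPHA8, EFNA2, EFNA3 and EFNA4 also passed none, with mean levels over the 6 wells of 2.72, 2.28, 3.83 and 5.42 RPKM. EFNA4 gave -0.56 on the log2 scale for HEK-Jag1Ndr against HEK-control (edgeR adjusted p = 0.0633), and ran from -1.06 to -0.08 over the alternative settings. EFNA2 passed for HEK-Jag1WT against HEK-control with limma on log2(RPKM + 1) alone (adjusted p = 0.0497).

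In HEK-Jag1Ndr against HEK-control 1 of these 10 was higher and 1 lower, and 1 in all without the HEK-control well beside C2C12-Notch1. In HEK-Jag1WT against HEK-control 1 was higher and 3 lower, and in HEK-Jag1Ndr against HEK-Jag1WT 3 were higher and 2 lower. These 2, 4 and 5 of 10 stand beside 46.1%, 54.3% and 57.7% of all tested genes in the same comparisons. EFNB3, the third ephrin-B ligand, had levels of 3.88 and 4.47 RPKM in HEK-Jag1Ndr, 6.68 and 7.07 RPKM in HEK-Jag1WT, and 8.98 and 11.2 RPKM in HEK-control. Its lines did not overlap, and HEK-control was highest, as for EFNB1, but HEK-Jag1Ndr was the lowest. The EFNB3 log2 difference was -1.25 for HEK-Jag1Ndr against HEK-control (edgeR adjusted p = 8.37e-12) and -0.55 for HEK-Jag1WT against HEK-control (edgeR adjusted p = 0.000268, DESeq2 0.0576). EPHA10, a receptor without kinase activity, had levels of 1.66 and 2.22 RPKM in HEK-Jag1Ndr, 3.01 and 3.34 RPKM in HEK-Jag1WT, and 1.47 and 1.49 RPKM in HEK-control. It was the only receptor gene of the 10 that was higher in HEK-Jag1WT than in HEK-control (log2 1.04, edgeR adjusted p = 2.09e-06), and HEK-Jag1Ndr against HEK-Jag1WT gave -0.69 (edgeR adjusted p = 0.000452, lost with DESeq2 at 0.0614).

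EPHB1, a receptor of retinal axons, was read thinly, with 41 and 36 reads in HEK-Jag1Ndr, 8 and 2 in HEK-Jag1WT, and 41 and 9 in HEK-control. It was lowest in both HEK-Jag1WT wells, and HEK-Jag1Ndr lay above HEK-control per length. HEK-Jag1Ndr against HEK-Jag1WT gave 2.57 on the log2 scale (edgeR adjusted p = 1.65e-07), and HEK-Jag1WT against HEK-control gave -1.76 (edgeR adjusted p = 0.000845). That second call was lost without the HEK-control well beside C2C12-Notch1 (adjusted p = 0.0926) and with DESeq2 (0.055), and the difference was -2.73 without the HEK-Jag1WT well beside C2C12-Notch1. The EPHB1 difference of 0.81 for HEK-Jag1Ndr against HEK-control (edgeR adjusted p = 0.0146) was 1.36 without the HEK-Jag1Ndr well beside C2C12-Notch1, and was lost without that beside C2C12-control (0.156), without either HEK-control well (0.107 and 0.0822) and with DESeq2 (0.292). EPHB6, another receptor without kinase activity, had levels of 1.81 and 2.20 RPKM in HEK-Jag1Ndr, 0.966 and 0.793 RPKM in HEK-Jag1WT, and 1.45 and 1.64 RPKM in HEK-control. Its log2 difference was 1.19 for HEK-Jag1Ndr against HEK-Jag1WT (edgeR adjusted p = 0.000105) and -0.81 for HEK-Jag1WT against HEK-control (edgeR adjusted p = 0.0129), and the call against HEK-control was lost without the HEK-Jag1WT well beside C2C12-control (0.219), without the HEK-control well beside C2C12-Notch1 (0.0898) and with DESeq2 (0.198). EPHA5, a receptor of the nervous system, stayed under 1 RPKM in every well, and its log2 difference of 1.27 for HEK-Jag1Ndr against HEK-Jag1WT (edgeR adjusted p = 0.00272) was lost without the HEK-Jag1Ndr or the HEK-Jag1WT well beside C2C12-control (0.0642 and 0.0596) and with DESeq2 (0.124).

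**Figure D3:**
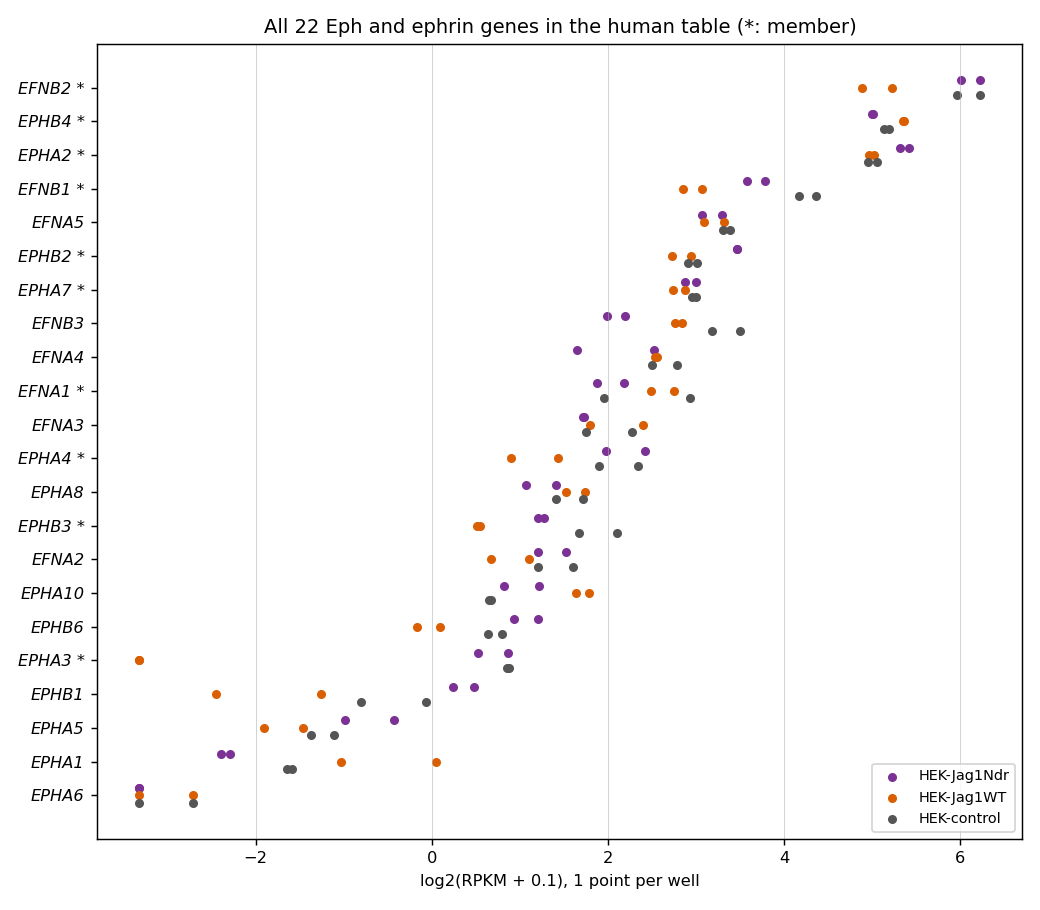
Levels of all 22 Eph and ephrin genes in the human table as log2(RPKM + 0.1) (horizontal axis), with 1 point per well coloured by HEK line, ordered by mean level. EFNB2, EPHB4 and EPHA2 lead, and EPHA3 and EPHB1 show HEK-Jag1WT below the other lines.

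Levels were also summed over all family genes of a class. EFNB1, EFNB2 and EFNB3 together came to 86.4 ± 5.92 RPKM in HEK-Jag1Ndr and 47.9 ± 4.38 RPKM in HEK-Jag1WT, against 97.9 ± 9.10 RPKM in HEK-control (SD, n = 2 each). The 5 ephrin-A genes summed to 23.0 ± 1.77 RPKM in HEK-Jag1Ndr and 27.0 ± 1.46 RPKM in HEK-Jag1WT, against 28.4 ± 2.95 RPKM in HEK-control. All EPHA genes summed to 59.8 ± 1.43 RPKM in HEK-Jag1Ndr and 48.0 ± 0.876 RPKM in HEK-Jag1WT, against 50.8 ± 0.402 RPKM in HEK-control. All EPHB genes summed to 48.4 ± 0.299 RPKM in HEK-Jag1Ndr and 50.3 ± 0.302 RPKM in HEK-Jag1WT, against 49.1 ± 1.57 RPKM in HEK-control. The ephrin-B sum in HEK-Jag1WT therefore lay far below the spread of the other lines, and the EPHB sums lay within a few RPKM of each other. EFNB2, EPHA2 and EPHB4 held the largest part of the ephrin-B, EPHA and EPHB sums, and the sums carry no test.

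Few human genes differed between C2C12 partners. The human share of the human and mouse gene reads differed as well. Beside C2C12-Notch1 it was 63.5%, 70.4% and 66.4% in HEK-Jag1Ndr, HEK-Jag1WT and HEK-control. Beside C2C12-control it was 47.3%, 52.8% and 50.6% in the same order. A difference that goes with the C2C12 line and one that goes with the species mix thus cannot be told apart. Set beside C2C12-Notch1 against beside C2C12-control, 2 of the 9 members were higher and 0 lower, where 4.84% of all tested genes passed (3.07% higher, 1.77% lower). The 658 genes behind that share became 178 and 176 without a HEK-Jag1Ndr well, 200 and 199 without a HEK-Jag1WT well, and 1428 and 1413 without a HEK-control well. EFNB2 was higher in the well with C2C12-Notch1 in each of the 3 HEK lines, by 0.26 in HEK-Jag1Ndr, 0.37 in HEK-Jag1WT and 0.28 in HEK-control on the log2 scale of reads per 1000000, and the fitted difference was 0.30 (SE 0.0464, edgeR adjusted p = 5.38e-06). EPHA4 was likewise higher in 3 of 3 lines, by 0.49, 0.58 and 0.46 in HEK-Jag1Ndr, HEK-Jag1WT and HEK-control, with a fitted difference of 0.50 (SE 0.11, edgeR adjusted p = 0.00182). In a fit without the HEK line as a term neither passed (edgeR adjusted p = 1 for both). The EFNB2 call was also lost with limma on log2(RPKM + 0.1) and log2(RPKM + 1), at adjusted p = 0.135 and 0.142. The EPHA4 call was lost with limma at 0.219 and 0.216, and with edgeR without the HEK-Jag1Ndr well beside C2C12-Notch1 (0.0643) or beside C2C12-control (0.0638). EFNA1 went the other way in 3 of 3 lines, by -0.26, -0.22 and -0.95, and did not pass (log2 -0.52, SE 0.187, edgeR adjusted p = 0.0945). The EFNB2 and EPHA4 differences were thus also seen in the HEK-control wells.

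Mouse reads of the same genes in these wells were set beside the human values. Mouse Efnb2 had a level of 43.2 ± 1.79 RPKM with C2C12-Notch1 and 22.4 ± 2.58 RPKM with C2C12-control (SD, n = 3 each), so the mouse gene differed between partners in the same direction as human EFNB2. Mouse Efnb2 reads per 1000000 human reads came to 108, 81.3 and 90.1 in the C2C12-Notch1 wells with HEK-Jag1Ndr, HEK-Jag1WT and HEK-control. In the C2C12-control wells they came to 99.7, 98.2 and 89.2, and these ranges overlapped. Mouse Epha4 came to 4.34, 3.35 and 2.23 reads per 1000000 human reads in the C2C12-Notch1 wells, against 5.04, 6.79 and 3.19 in the C2C12-control wells. These rates also depend on the human share of reads, which differed between partners. How reads were divided between the species is not given in the sources used here, and the part of mouse reads in the human values was not tested.

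**Figure D4:**
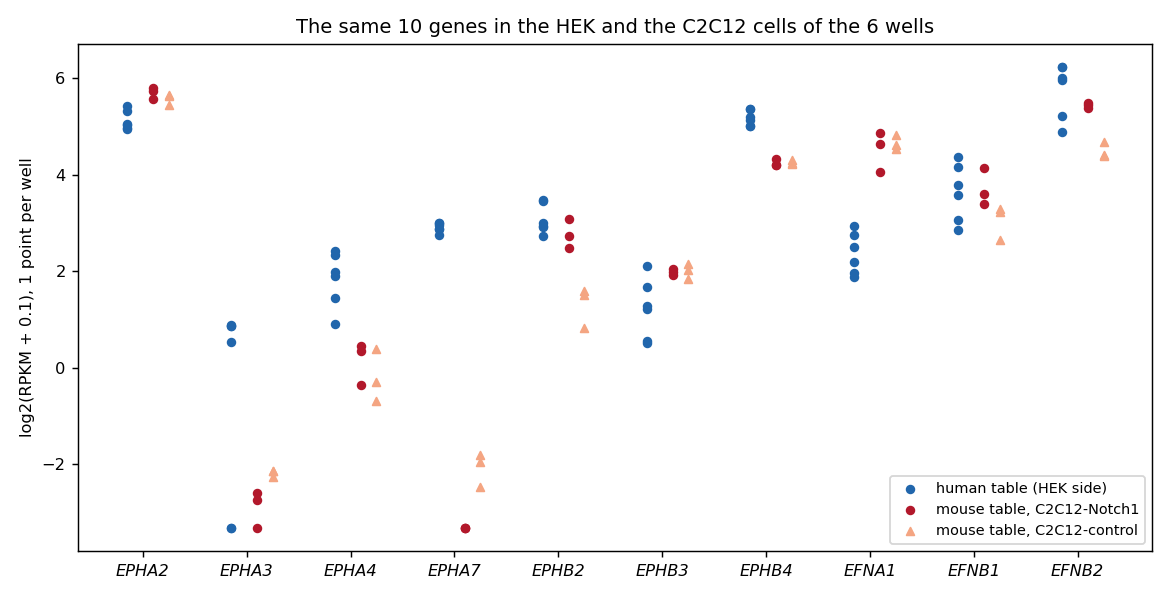
Levels of the 10 genes as log2(RPKM + 0.1) (vertical axis) in the human table for all 6 wells and in the mouse table by C2C12 line, with 1 point per well. Human EPHA3 lies at 0 RPKM in 2 wells, mouse Epha3 and Epha7 average 0.0791 and 0.0708 RPKM, and mouse Efnb2 lies higher with C2C12-Notch1.

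Mouse Epha7 had 0 to 9 reads per well and a mean of 0.0708 RPKM over the 6 wells, where human EPHA7 averaged 7.42 RPKM. Mouse Epha3 had 0 to 4 reads per well, against 41 to 104 human EPHA3 reads in the HEK-Jag1Ndr and HEK-control wells. Mouse Efna1 averaged 24.2 RPKM, where human EFNA1 averaged 5.24 RPKM, and mouse Epha2 averaged 49.7 RPKM, where human EPHA2 averaged 35.0 RPKM. The receptors Ephb3 and Ephb4 averaged 3.90 and 18.8 RPKM in mouse cells, where human EPHB3 and EPHB4 averaged 2.41 and 36.1 RPKM. Mouse Ephb2 was at 6.79 ± 1.49 RPKM with C2C12-Notch1 and 2.44 ± 0.677 RPKM with C2C12-control (SD, n = 3 each), with no overlap, while human EPHB2 averaged 8.55 RPKM. Mouse and human levels come from tables scaled separately and are set side by side only as descriptions.

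The genes beside EPHA3 on chromosome 3 were lower in HEK-Jag1WT as well, though still expressed. Positions come from the order of genes in RefSeq for assembly GRCh38.p14, since the files hold no coordinates. Among the 10 entries on each side, 10 genes were tested, and against HEK-control 0 were higher and 8 lower in HEK-Jag1WT (median log2 -0.48), where 24.9% of all tested genes were higher and 29.4% lower. In HEK-Jag1Ndr 2 were higher and 0 lower (median 0.06), where 22.6% of all tested genes were higher and 23.5% lower. With 20 entries on each side, 0 of 16 were higher and 13 lower in HEK-Jag1WT (median -0.56). PROS1, the gene of the coagulation cofactor protein S and the next gene on one side, had levels of 4.83 and 6.28 RPKM in HEK-Jag1Ndr, 2.10 and 2.62 RPKM in HEK-Jag1WT, and 5.91 and 6.81 RPKM in HEK-control. PROS1 was lowest in both HEK-Jag1WT wells, by -1.46 on the log2 scale against HEK-control (edgeR adjusted p = 7.60e-10).

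On the other side C3orf38, the next gene, had levels of 16.8 and 14.4 RPKM in HEK-Jag1Ndr, 10.9 and 10.7 RPKM in HEK-Jag1WT, and 14.6 and 15.1 RPKM in HEK-control. Its log2 difference for HEK-Jag1WT against HEK-control was -0.45 (edgeR adjusted p = 0.00108, lost with DESeq2 at 0.068 and without the HEK-Jag1WT well beside C2C12-Notch1 at 0.0682). CGGBP1, a CGG repeat binding protein, and CHMP2B, a subunit of the ESCRT-III membrane machinery, gave -0.28 and -0.51 (edgeR adjusted p = 0.000114 and 2.35e-07), the first of which was lost without the HEK-Jag1WT well beside C2C12-Notch1 (0.0547). DHFRL1, a dihydrofolate reductase copy whose reads may be shared with its close relative, gave -0.61 (edgeR adjusted p = 0.0269), which was -0.06 without the HEK-Jag1WT well beside C2C12-Notch1, -0.36 without the HEK-control well beside C2C12-Notch1 (adjusted p = 0.903 and 0.445) and -1.05 without the HEK-Jag1WT well beside C2C12-control. VGLL3, a transcription cofactor named here after its values were seen, had levels of 5.59 and 5.61 RPKM in HEK-Jag1Ndr, 0.502 and 0.468 RPKM in HEK-Jag1WT, and 3.53 and 3.52 RPKM in HEK-control.

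**Figure D5:**
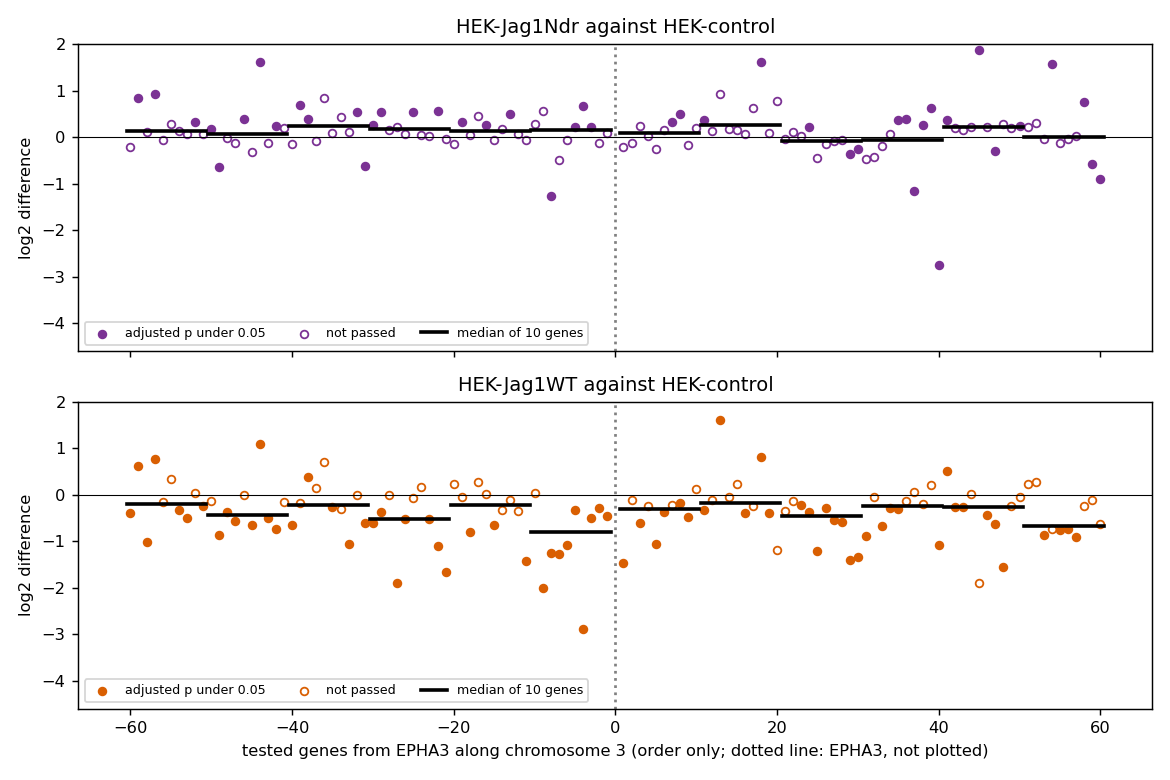
Log2 differences of tested genes along chromosome 3 around EPHA3 (horizontal axis, gene order from EPHA3 at 0), for HEK-Jag1Ndr (upper) and HEK-Jag1WT (lower) against HEK-control, with the median of each 10 genes as a line. The medians of the HEK-Jag1WT panel are all below 0, and those of the HEK-Jag1Ndr panel lie on both sides of 0. In HEK-Jag1WT the 10 tested genes next to EPHA3 have medians of -0.80 on the left and -0.31 on the right.

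The lower values were not confined to the genes next to EPHA3. Of 764 other tested genes on chromosome 3, 54.2% were lower in HEK-Jag1WT than in HEK-control, with a median log2 difference of -0.32, against 0.07 in HEK-Jag1Ndr. Over all tested genes 24.9% were higher and 29.4% lower in HEK-Jag1WT against HEK-control. These shares were 22.6% and 23.5% in HEK-Jag1Ndr against HEK-control, and 29.2% and 28.5% in HEK-Jag1Ndr against HEK-Jag1WT. Only 2 of 23 chromosomes had a lower median than chromosome 3 in HEK-Jag1WT against HEK-control. EPHB3 is on the same chromosome. Among the 17 tested genes of the 10 entries on each side of it, 0 were higher and 11 lower in HEK-Jag1WT against HEK-control (median -0.40). In HEK-Jag1Ndr against HEK-control 8 of the 17 were higher and 4 lower (median 0.15), where EPHB3 itself differed by -0.71. Around EFNB1 on chromosome X, 1 was higher and 6 lower of 9 in HEK-Jag1WT against HEK-control (median -0.51). The median over the whole chromosome was -0.03. In HEK-Jag1Ndr against HEK-control 2 of the 9 were higher and 4 lower (median -0.06), where EFNB1 itself differed by -0.62. Around EFNB2 on chromosome 13, 3 were higher and 3 lower of 8 in HEK-Jag1WT against HEK-control (median -0.13, chromosome median 0.16). EFNB2 itself was lower by 1.07 on the log2 scale. EPHA4 on chromosome 2 had 2 higher and 3 lower of 13 (median -0.12), and the chromosome median was -0.22 in HEK-Jag1WT. In HEK-Jag1Ndr against HEK-Jag1WT 9 of those 13 were higher and 0 lower (median 0.46, chromosome median 0.40). Around EPHB4 on chromosome 7, 6 were higher and 0 lower of 13 in HEK-Jag1WT against HEK-control (median 0.17, EPHB4 0.17, chromosome median 0.38). In HEK-Jag1Ndr against HEK-Jag1WT 0 of these were higher and 7 lower (median -0.38, EPHB4 -0.32, chromosome median -0.24). Around EPHB2 on chromosome 1 that comparison gave 0 higher and 6 lower of 10 (median -0.22), where EPHB2 itself differed by 0.66. Around EPHA2, 3 were higher and 5 lower of 14 there, and around EFNA1 3 were higher and 3 lower of 12. In HEK-Jag1Ndr against HEK-control these were 2 and 4 around EPHA2, and 1 and 1 around EFNA1. In HEK-Jag1WT against HEK-control they were 4 and 4, and 2 and 2. In HEK-Jag1Ndr against HEK-control, 12 of 13 genes around EPHA7 were higher and 0 lower (median 0.40), while EPHA7 itself passed no test. Chromosome 6, which holds EPHA7, had 32% of its tested genes higher and 43.4% lower in that comparison, with a median of -0.21. These neighbourhoods and chromosome medians were added after the values were seen, and whether gene dosage differs between the lines was not tested.

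The calls among adaptors and effectors of Eph signalling fell in both directions, at shares near or below those of all tested genes. Of 46 listed, 45 were tested: 8 were higher and 7 lower in HEK-Jag1Ndr against HEK-control, 12 higher and 13 lower in HEK-Jag1WT against HEK-control, and 13 higher and 12 lower in HEK-Jag1Ndr against HEK-Jag1WT. In these comparisons 33.3%, 55.6% and 55.6% of the 45 passed, where 46.1%, 54.3% and 57.7% of all tested genes did. Their medians of 0.03, 0.04 and -0.03 lay near those of all tested genes. The 15 calls in HEK-Jag1Ndr against HEK-control became 5 with DESeq2, which called 2995 genes over the whole table where edgeR called 6266. GRB10, an adaptor that binds EPHB1 and insulin receptors, had levels of 82.8 and 66.9 RPKM in HEK-Jag1Ndr, 32.3 and 25.7 RPKM in HEK-Jag1WT, and 42.1 and 37.0 RPKM in HEK-control. It was highest in HEK-Jag1Ndr (log2 0.93 against HEK-control, edgeR adjusted p = 3.55e-22) and lowest in HEK-Jag1WT (-0.46, edgeR adjusted p = 8.83e-09). DOCK1, a Rac exchange factor, was higher in HEK-Jag1Ndr by 0.95 and in HEK-Jag1WT by 1.15 against HEK-control on the log2 scale (edgeR adjusted p = 4.56e-14 and 2.54e-17).

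Further partners moved in 1 line or between the Jag1 lines. ANKS1A, an adaptor that binds EPHA receptors, was lower in HEK-Jag1Ndr against HEK-control (log2 -0.53, edgeR adjusted p = 5.21e-08), as was the exchange factor ARHGEF16 (-0.82, edgeR adjusted p = 2.92e-06), whose difference was -0.50 without the HEK-Jag1Ndr well beside C2C12-Notch1 and -0.45 without the HEK-control well beside C2C12-Notch1. GRB2, an adaptor to the RAS pathway, was lower in HEK-Jag1WT against HEK-control (-0.53, edgeR adjusted p = 1.68e-12), and the kinase gene ABL2 was higher (0.45, edgeR adjusted p = 6.06e-08). The kinase gene PAK2 was higher (0.55, edgeR adjusted p = 5.02e-11) and the exchange factor ITSN1 lower (-0.68, edgeR adjusted p = 7.83e-11) in HEK-Jag1Ndr than in HEK-Jag1WT. Between C2C12 partners GRB10 was higher beside C2C12-Notch1 (0.30, edgeR adjusted p = 1.54e-05, lost with limma at 0.150 and 0.155) and the lipid phosphatase gene INPPL1 lower (-0.22, edgeR adjusted p = 0.0326, lost in 8 of 12 alternative settings, among them without either HEK-Jag1Ndr well or either HEK-Jag1WT well at 0.323 to 0.389).

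Receptors and ligands of the other guidance families were read in the same way. The guidance list held 43 genes, of which 37 were tested: 3 were higher and 10 lower in HEK-Jag1Ndr against HEK-control (median -0.09), 2 higher and 18 lower in HEK-Jag1WT against HEK-control (median -0.38), and 13 higher and 4 lower in HEK-Jag1Ndr against HEK-Jag1WT (median 0.29). The shares that passed were 35.1%, 54.1% and 45.9%, where 46.1%, 54.3% and 57.7% of all tested genes passed. In HEK-Jag1WT against HEK-control 24.9% of all tested genes were higher and 29.4% lower. The 13 calls in HEK-Jag1Ndr against HEK-control became 8 with DESeq2, which called 2995 genes over the whole table where edgeR called 6266. UNC5B, a netrin receptor, had levels of 18.8 and 18.2 RPKM in HEK-Jag1Ndr, 10.4 and 11.0 RPKM in HEK-Jag1WT, and 29.6 and 28.7 RPKM in HEK-control. That order, HEK-control above HEK-Jag1Ndr above HEK-Jag1WT without overlap, is the order of EPHB3 and EFNB1 (UNC5B log2 -0.66 and -1.47 against HEK-control, edgeR adjusted p = 1.79e-13 and 6.82e-27). ROBO1, a SLIT receptor on chromosome 3, had levels of 26.9 and 29.6 RPKM in HEK-Jag1Ndr, 14.0 and 13.9 RPKM in HEK-Jag1WT, and 29.0 and 29.3 RPKM in HEK-control. It was lower in HEK-Jag1WT alone (log2 -1.08 against HEK-control, edgeR adjusted p = 1.28e-21), the pattern seen in EFNB2 and EPHA4.

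The secreted semaphorin gene SEMA3C was an exception, higher in HEK-Jag1WT than in HEK-control by 1.47 on the log2 scale (edgeR adjusted p = 5.68e-20). The membrane semaphorin gene SEMA6A was lower in HEK-Jag1Ndr (-1.01, edgeR adjusted p = 6.78e-12) and in HEK-Jag1WT (-1.96, edgeR adjusted p = 3.82e-20) than in HEK-control. RGMB, a neogenin ligand, was higher in HEK-Jag1Ndr against HEK-control (0.67, edgeR adjusted p = 3.39e-10), and the semaphorin co-receptor gene NRP1 was lower (-0.87, edgeR adjusted p = 4.11e-10). Beside C2C12-Notch1 the guidance gene RGMA was the 1 that passed (-0.53, edgeR adjusted p = 0.0165), and the call was lost in 7 of 11 alternative settings, among them without either HEK-Jag1Ndr well (0.499 and 0.504) or either HEK-Jag1WT well (0.0661 and 0.0688).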

How the data were processed

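Polyadenylated RNA of the 6 wells was sequenced from an unstranded kit, per the labels' protocols, and per the submitters' processing notes STAR was used with builds hg19 and mm9. The authors deposited whole-number read counts per gene and RPKM values in a human and a mouse table; how they counted and divided reads between species is not given in the sources used here. Exact repeats of an entry (448 human, 472 mouse) were left out. Levels are the deposited RPKM.

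Human counts were tested with edgeR 4.0.16 (TMM, filterByExpr, robust quasi-likelihood fit, HEK line plus C2C12 line, 2 residual degrees of freedom, common variation 3.48%) in R 4.3.3. The Benjamini-Hochberg adjustment ran over 13596 genes and the threshold was 0.05. Alternatives were library sizes only, DESeq2 1.42.0, no filter on low counts, no C2C12 term (for the comparison of C2C12 partners, no HEK line term), limma 3.58.1 on log2(RPKM + 0.1 or 1) and each well left out in turn. The script was checked on counts simulated with the same variation for every gene, with log2 changes of 1 or 2 planted in well-read genes. It recovered 100% of 100 genes at each size and also called 17 unchanged genes. Smaller changes and genes of greater variation were not simulated, so the check does not extend to them. Wells beside the same C2C12 line share that partner by the labels, which is why the term is in the model. A called well pair rests on 2 wells, so precision is low for genes with few reads, and floors cover counting error only.

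Members and gene lists were chosen with earlier results of these data known. Named were all members, the tested family, up to 4 genes per list and comparison by smallest p past the threshold, the 3 nearest genes on each side of EPHA3 with 10 reads in some well (1 of which is not reported here), and the 5 genes most like EPHA3. Neighbours were taken by gene order in the RefSeq table of GRCh38.p14, to which 23222 of 23855 entries (97.3%) were matched, in place of a planned distance in bases, since the files hold no coordinates.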

Additional observations from a re-analysis of the deposited data

How the results depend on the processing

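A tally under 12 alternatives covered the 9 members between HEK lines and only a part of the other family tests. It gave 465 values with the same direction and side of the threshold, 49 that lost it, 5 that gained it and 6 that changed sign. Tests outside the tally changed sign as well. In HEK-Jag1WT against HEK-control EFNA4 ran from -0.436 to 0.245 and EFNA3 from -0.055 to 0.305. DESeq2 called 2995 genes in HEK-Jag1Ndr against HEK-control, 4267 in HEK-Jag1WT against HEK-control, 4866 in HEK-Jag1Ndr against HEK-Jag1WT and 69 between C2C12 partners. Between partners, limma called 27 and 25 genes (pseudocounts 0.1 and 1), leaving out single wells gave 176 to 1428, and edgeR without the HEK line term (no block) called 0, with 50 at an unadjusted p under 0.05. Of the 9 members, DESeq2 and limma with 0.1 each called 3 in HEK-Jag1Ndr against HEK-control, and single wells left out gave 3 to 5. Between partners DESeq2 called 1 member, limma 0 at either pseudocount, edgeR without the HEK line term 0 (0 at an unadjusted p under 0.05), and single wells left out 1 to 2. In the lists DESeq2 called 1, 1 and 3 of the other family genes, against 2, 4 and 5 with edgeR, in HEK-Jag1Ndr against HEK-control, HEK-Jag1WT against HEK-control and HEK-Jag1Ndr against HEK-Jag1WT. It called 5 and 16 signalling partners in the first and second of these, against 15 and 25, and 8, 13 and 10 guidance genes, against 13, 20 and 17. With single wells left out, the C2C12 partner comparison gave 0 to 1 other family genes, 1 to 6 signalling partners and 0 to 5 guidance genes. Differences that changed sign had not passed. EPHA7 in HEK-Jag1Ndr against HEK-control ran from -0.091 to 0.042 with single wells left out. In HEK-Jag1WT against HEK-control EPHA2 ran from -0.136 to 0.0892 and was 0.0036 with library sizes only, and EFNA1 ran from -0.214 to 0.548. The cause of these shifts was not tested. With 2 wells per line, genes with few reads, such as EPHB1 and EFNA1, have the widest errors.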
